A study of Homo sapiens with 6 samples.

Results

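The 10 genes described here form the usual readout of epithelial-mesenchymal transition (EMT): the transcription factor genes SNAI1, SNAI2, TWIST1, ZEB1 and ZEB2, the classical cadherin genes CDH1, CDH2 and CDH3, and the genes of vimentin (VIM) and fibronectin (FN1). They were taken by gene name from deposited count tables that list 50868 genes, and each name matched 1 row. RNA was sequenced from DU145, an established human prostate cancer line that grows without androgen, and the siRNA is what sets the groups apart. The 3 siCtrl libraries received a control siRNA and carry the genotype label RCC2 wild type, and the 3 siRCC2 libraries received an siRNA against RCC2 and carry the label RCC2 knockdown. The siRNA sequence and the time after transfection are not given in the labels. Nor is it given whether a group's libraries were grown as separate cultures, and the p-values therefore describe library-to-library spread that could be technical. RCC2 belongs to the RCC1 repeat family, and the series asks about its part in the growth and migration of prostate cancer cells.

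In EMT, epithelial cells loosen their junctions and take on the shape and motility of mesenchymal cells. Zinc finger proteins of the SNAI and ZEB families and the basic helix-loop-helix protein TWIST1 drive this change, in large part by binding E-box sequences in epithelial genes such as CDH1 and repressing them. E-cadherin (CDH1) and P-cadherin (CDH3) join epithelial cells and N-cadherin (CDH2) mesenchymal and neural cells, while vimentin, an intermediate filament protein, and fibronectin, a matrix glycoprotein, are common mesenchymal markers.

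RCC2 itself measured 198, 194 and 191 CPM in siCtrl replicates 1 to 3 and 59.3, 57.6 and 54.8 CPM in siRCC2 replicates 1 to 3, where CPM is a gene's count scaled to its library's total after TMM adjustment. It fell by 1.76 on the log2 scale (SE 0.07, edgeR adjusted p = 2.00e-05). Library totals ran from 17377191 to 19895431 counts. On the second principal component siRCC2 replicates 1 to 3 spread widely (41.5, -13.3 and -35.2), while siCtrl replicates 1 to 3 lay close together (5.36, 5.43 and -3.78). Members whose call depends on leaving out a library are therefore given both ways. The epithelial keratin genes KRT7 and KRT8 were abundant (3588 ± 116 and 462 ± 4.12 CPM in siCtrl, SD, n = 3 here and below), while the prostate genes KLK2 and KLK3 had 0 and at most 1 count. The stromal gene LUM had 0 counts, but not all stromal markers were empty. COL1A1 was read at 12.5 ± 1.06 CPM in siCtrl and 9.22 ± 1.40 CPM in siRCC2. The 4 leukocyte markers summed to 15.1 to 18.1 CPM in siCtrl and 15.99 to 23.3 CPM in siRCC2, nearly all of it the lysosomal gene CD68 (16.3 ± 1.61 and 19.2 ± 3.71 CPM, not past the threshold), while PTPRC and CD3E had at most 1 count. The 4 endothelial markers summed to 1.19 to 1.89 CPM in siCtrl and 0.682 to 1.13 CPM in siRCC2. What leukocyte and endothelial markers contribute to the results below was not tested.

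SNAI and ZEB proteins bind the E-box CAGGTG, and 2 stretches of DNA before member genes are shown to make that sequence concrete. They come from a RefSeq promoter table on GRCh38.p14 that matched 5 of the 10 genes, and each is the 250 bases before an annotated start on the plus strand, with capitals for CAGGTG or its reverse complement CACCTG. The ZEB1 stretch lies at chr10:31318167-31318416 and the VIM stretch at chr10:17227991-17228240.
ZEB1: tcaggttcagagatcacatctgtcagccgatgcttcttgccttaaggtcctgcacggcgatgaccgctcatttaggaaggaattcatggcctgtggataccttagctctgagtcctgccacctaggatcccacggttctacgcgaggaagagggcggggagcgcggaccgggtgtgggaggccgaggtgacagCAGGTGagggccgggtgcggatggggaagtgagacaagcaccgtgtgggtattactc
VIM: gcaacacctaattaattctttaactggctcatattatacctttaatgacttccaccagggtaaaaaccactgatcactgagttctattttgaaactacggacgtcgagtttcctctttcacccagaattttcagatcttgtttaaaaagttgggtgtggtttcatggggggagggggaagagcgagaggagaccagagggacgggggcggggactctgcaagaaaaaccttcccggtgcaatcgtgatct
In GENCODE 29 the ZEB1 stretch overlaps exon sequence of ZEB1-AS1 on the minus strand, and the VIM stretch overlaps no exon. The ZEB1 stretch holds 1 E-box, 57 to 52 bases before the start, and the VIM stretch holds 0. Among 35116 stretches of this length in the table, 17.5% hold at least 1. Of the 7 ZEB1 starts in the table, 1 other has 2 matches before it. These matches describe letters, and binding was not measured.

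Of the 10 genes, 8 had enough reads to be tested and 4 of these passed an adjusted p of 0.05 (edgeR quasi-likelihood test, Benjamini-Hochberg over all genes). SNAI1, SNAI2 and CDH1 rose and CDH3 fell. Among all 16536 genes tested 41.8% passed, 20.7% upward and 21.1% downward, so 4 of 8 is near the share of genes at large. The median log2 fold change of the 8 was 0.10, against -0.02 for all tested genes.

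**Figure D1:**
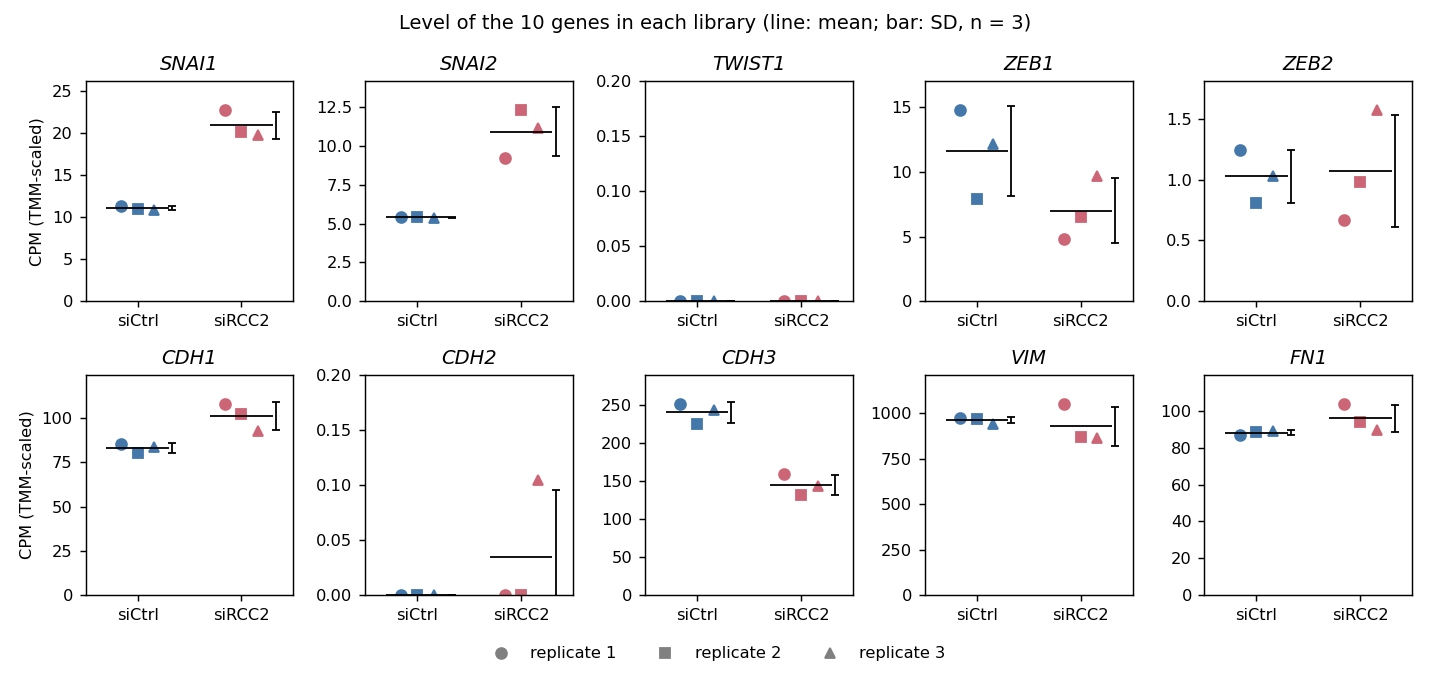
CPM (TMM-scaled, linear axis from 0) of each of the 10 genes in the 3 siCtrl and 3 siRCC2 libraries, with marker shape for the replicate number, a horizontal line for the group mean and a bar for the SD. SNAI1, SNAI2 and CDH1 lie higher in all 3 siRCC2 libraries, CDH3 lies lower in all 3, TWIST1 is at 0 throughout, and the groups overlap for ZEB1, ZEB2 and VIM.

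SNAI1 and SNAI2 encode Snail and Slug, zinc finger repressors of CDH1, and both rose. SNAI1 (ENSG00000124216, chromosome 20, 49982999 to 49988886, plus strand; all gene positions are on GRCh38) measured 11.4, 10.99 and 10.9 CPM in siCtrl replicates 1 to 3 and 22.8, 20.2 and 19.8 CPM in siRCC2 replicates 1 to 3. Every siRCC2 library lay above every siCtrl library. In RNA from a whole culture, a change in the number of cells that express a gene and a change in its RNA per cell cannot be told apart. The log2 fold change was 0.92 ± 0.10 (SE; edgeR adjusted p = 0.000679), a 1.89-fold rise with a 95% interval from 1.59 to 2.24. SNAI1 passed in all 14 alternative analyses, with log2 fold changes from 0.84 to 0.96.

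SNAI2 (ENSG00000019549, chromosome 8, 48917690 to 48921740, minus strand) measured 5.41, 5.44 and 5.36 CPM in siCtrl and 9.19, 12.3 and 11.2 CPM in siRCC2 replicates 1 to 3. The siCtrl values lay close together, and the siRCC2 values spread more widely with replicate 1 the lowest, still above all 3 siCtrl values. SNAI2 rose 2.02-fold, with a 95% interval from 1.59 to 2.55 (log2 fold change 1.01 ± 0.14, edgeR adjusted p = 0.00163). It too passed in all 14 alternatives, with log2 fold changes from 0.93 to 1.11.

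TWIST1 (ENSG00000122691, chromosome 7, 19020991 to 19117672, minus strand) had 0 counts in all 6 libraries. A count of 0 allows up to 3 reads, or 0.151 to 0.173 CPM at these depths, so neither a level nor a change was detectable. No 50-base stretch of its longest coding transcript is shared with another gene. Its relative TWIST2 was read in every library and fell from 21.1 ± 1.12 to 15.04 ± 1.88 CPM (-0.49 ± 0.12, edgeR adjusted p = 0.0168). The TWIST2 call was lost without siCtrl replicate 1 (adjusted p = 0.0641), siCtrl replicate 3 (0.0561) or siRCC2 replicate 2 (0.0517).

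ZEB1 encodes a zinc finger homeodomain repressor that acts on CDH1 and on genes of the miR-200 family, and it did not pass. ZEB1 (ENSG00000148516, chromosome 10, 31318495 to 31529814, plus strand) measured 14.8, 7.87 and 12.1 CPM in siCtrl and 4.84, 6.49 and 9.70 CPM in siRCC2 replicates 1 to 3. The groups overlapped, since siCtrl replicate 2 lay below siRCC2 replicate 3. The log2 fold change was -0.72 ± 0.31 (edgeR adjusted p = 0.102) with a wide 95% interval from -1.45 to 0.01. ZEB1 passed in 1 of 14 alternatives, without siRCC2 replicate 3 (-1.03, adjusted p = 0.0364). ZEB1-AS1, whose exons overlap those of ZEB1 on the opposite strand, had 53, 43 and 53 counts in siCtrl and 53, 61 and 70 in siRCC2 replicates 1 to 3 (0.38 ± 0.16, adjusted p = 0.103). The sources used here do not give whether reads were counted by strand, so the reads of such pairs may not be separated.

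ZEB2 (ENSG00000169554, chromosome 2, 144384081 to 144524583, minus strand), the paralog of ZEB1, was read at 25, 15 and 20 counts in siCtrl and 11, 19 and 30 counts in siRCC2 replicates 1 to 3. The siRCC2 group held both the lowest and the highest library. The log2 fold change was 0.07 ± 0.36 (edgeR adjusted p = 0.890) with a 95% interval from -0.78 to 0.92, so at this depth changes of nearly 2-fold either way cannot be told from none. Of its 50-base stretches 0.89% also occur in the pseudogene ZEB2P1.

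The epithelial cadherins CDH1 and CDH3 moved in opposite directions. CDH1 (ENSG00000039068, chromosome 16, 68737225 to 68835548, plus strand), which holds epithelial cells together at adherens junctions, measured 85.4, 80.0 and 83.5 CPM in siCtrl and 108, 103 and 92.6 CPM in siRCC2 replicates 1 to 3. All siRCC2 values lay above all siCtrl values, with siRCC2 replicate 3 the nearest to them. The rise was 1.22-fold with a 95% interval from 1.07 to 1.39 (log2 fold change 0.29 ± 0.08, edgeR adjusted p = 0.0271). This call was lost in 6 of 14 alternatives: without any 1 library other than siRCC2 replicate 3 (adjusted p = 0.0662, 0.0999 and 0.0796 without siCtrl replicates 1, 2 and 3, and 0.0567 and 0.112 without siRCC2 replicates 1 and 2), and with every gene of at least 1 read tested (0.0706).

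CDH3 (ENSG00000062038, chromosome 16, 68636189 to 68722616, plus strand), found in the basal layer of many epithelia, measured 252, 226 and 244 CPM in siCtrl and 159, 132 and 144 CPM in siRCC2 replicates 1 to 3. All siRCC2 libraries lay below the lowest siCtrl library. Its level fell to 0.603 times the control, with a 95% interval from 0.522 to 0.696 (log2 fold change -0.73 ± 0.09, edgeR adjusted p = 0.000820). CDH3 passed in all 14 alternatives, with log2 fold changes from -0.82 to -0.65. AC126773.4, antisense within CDH3, had 180, 137 and 158 counts in siCtrl and 138, 105 and 75 in siRCC2 and did not pass (-0.47 ± 0.26, adjusted p = 0.192).

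Per kilobase of the longest coding transcript, CDH3 stood at 2.93, 2.80 and 2.90 times CDH1 in siCtrl replicates 1 to 3. In siRCC2 replicates 1 to 3 it stood at 1.46, 1.28 and 1.54 times CDH1. The log2 ratio of CDH3 to CDH1 in CPM, a comparison added after the data were seen, went from 1.53 ± 0.03 to 0.52 ± 0.14 (SD, n = 3). The difference was -1.01 (exact two-sided permutation p = 0.1, the smallest that 3 libraries against 3 allow). CDH1 was already higher and CDH3 already lower in every siRCC2 library. The ratio therefore had to separate the groups, and this p adds no support. CDH3 remained the more abundant of the pair in all 6 libraries.

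The pair are neighbours, with 14608 bases between the end of CDH3 and the start of CDH1. From 250 kb before CDH3 to 250 kb after CDH1, 6 genes were tested and 3 passed, near the share of 41.8% among all tested genes. CDH1 and CDH3, which set the window, are among the 3. The third was TANGO6, which fell (-0.42 ± 0.10, edgeR adjusted p = 0.0124). ZFP90 (0.32 ± 0.17, adjusted p = 0.181) and SMPD3 (-1.15 ± 0.51, adjusted p = 0.108) did not pass.

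CDH2 (ENSG00000170558, chromosome 18, 27950966 to 28177446, minus strand) had 0 counts in 5 libraries and 2 counts in siRCC2 replicate 3, within what a count of 0 allows, so no fold is given. The log2 ratio of CDH1 to CDH2 with 0.5 CPM added to each was 7.42 ± 0.05 in siCtrl and 7.54 ± 0.24 in siRCC2 (SD, n = 3), a difference of 0.12 (exact two-sided permutation p = 0.4). In 5 libraries CDH2 contributes only the added constant, and siRCC2 replicate 3, which holds the 2 counts, had the lowest ratio (7.26). Without that library the difference was 0.26, and with 0.1 CPM added and all libraries it was -0.13. Among 15 other classical cadherin genes, 6 had 0 counts in all libraries and 2 were tested. Of these CDH24, a type II cadherin gene, rose from 74.4 ± 1.75 to 136 ± 12.1 CPM (0.87 ± 0.08, edgeR adjusted p = 0.000344) and CDH15 did not pass.

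The mesenchymal markers VIM and FN1 did not pass. VIM (ENSG00000026025, chromosome 10, 17228259 to 17237593, plus strand) measured 975, 968 and 941 CPM in siCtrl and 1052, 867 and 865 CPM in siRCC2 replicates 1 to 3. Replicate 1 of siRCC2 lay above all siCtrl libraries and replicates 2 and 3 below all of them. The log2 fold change was -0.05 ± 0.09 (edgeR adjusted p = 0.673), with a 95% interval of the fold from 0.837 to 1.11. Without siRCC2 replicate 1, VIM passed as lower (-0.16, adjusted p = 0.0281). VIM-AS1, which overlaps VIM exons on the opposite strand, had 85, 54 and 46 counts in siCtrl and 29, 32 and 64 in siRCC2, against at least 16500 for VIM.

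FN1 (ENSG00000115414, chromosome 2, 215360440 to 215436172, minus strand) measured 87.1, 88.5 and 89.3 CPM in siCtrl and 104, 94.2 and 89.8 CPM in siRCC2 replicates 1 to 3. All siRCC2 values lay above all siCtrl values, replicate 3 by a narrow margin. The log2 fold change was 0.12 ± 0.08 (edgeR adjusted p = 0.252), with a 95% interval of the fold from 0.958 to 1.23. With FN1, the groups did not overlap in 5 of the 8 tested genes, against 55.4% of all tested genes.

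**Figure D2:**
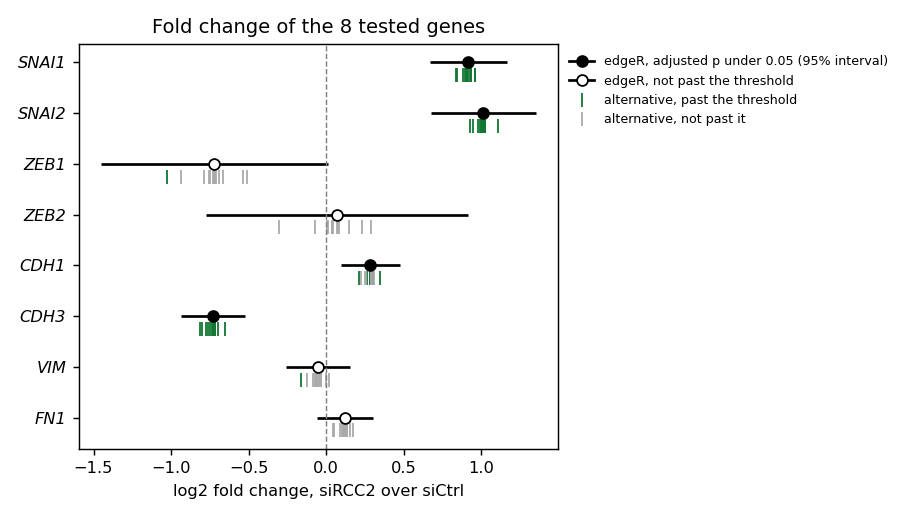
Log2 fold change of siRCC2 over siCtrl for the 8 tested genes: circles are edgeR estimates (filled where the adjusted p is under 0.05), horizontal lines their 95% intervals, and ticks below them the 14 alternative analyses (green past the threshold, grey not). All ticks of SNAI1, SNAI2 and CDH3 are green, 8 of CDH1 are, and ZEB1 and VIM have 1 green tick each.

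The log2 ratio of CDH1 to VIM, an epithelial against a mesenchymal marker within a library, was -3.51, -3.59 and -3.49 in siCtrl and -3.28, -3.07 and -3.22 in siRCC2 replicates 1 to 3. It was higher in all 3 siRCC2 libraries, by 0.34 on average (exact two-sided permutation p = 0.1, again the smallest possible). Such separation is common here, since the groups did not overlap in 55.4% of all tested genes, CDH1 among them. Leaving out each library in turn gave differences from 0.28 to 0.38.

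Ranked by CPM per kilobase in siCtrl, VIM came first (450.1 ± 8.4, above 99.3% of the 16450 genes with a length). CDH3 (48.8 ± 2.7), CDH1 (16.97 ± 0.56) and FN1 (9.92 ± 0.13) followed. The transcription factor genes were lower, with SNAI1 (6.58 ± 0.14) above SNAI2 (2.23 ± 0.017), ZEB1 (1.85 ± 0.56) and ZEB2 (0.107 ± 0.023). SNAI2 and ZEB1 were the neighbours in this order whose libraries overlapped. DU145 with control siRNA thus held vimentin, P-cadherin and E-cadherin transcripts together. In siRCC2 the order was the same but for SNAI1 (12.4 ± 0.96), which stood above FN1 (10.8 ± 0.82), and no neighbours overlapped. SNAI1 went from above 52.9% to above 68.0% of the ranked genes, and SNAI2 from above 30.9% to above 45.8%.

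**Figure D3:**
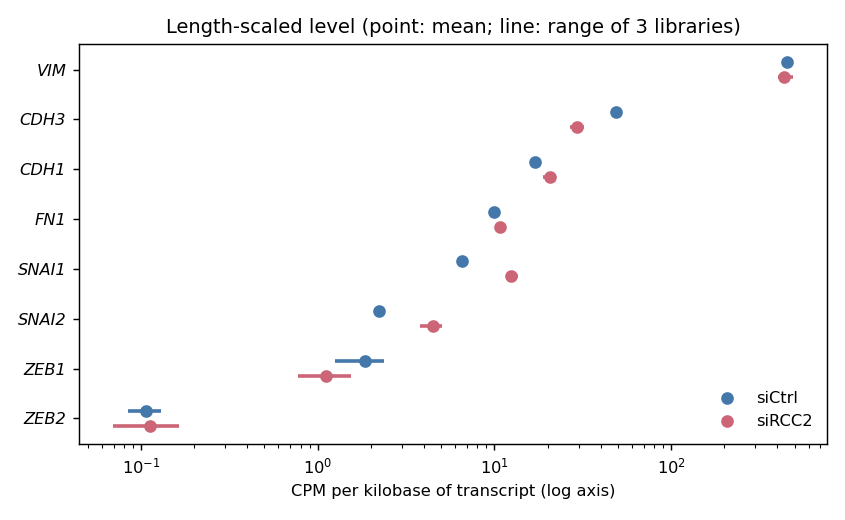
CPM per kilobase of transcript (log axis) for the 8 tested genes in siCtrl (blue) and siRCC2 (red), as the mean (point) and range (line) of 3 libraries. VIM lies highest and ZEB2 lowest in both groups, and the siCtrl ranges of SNAI2 and ZEB1 overlap.

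The genes with the pattern most like each member were sought among 134 tested genes of the lists below, by Pearson r of log2 CPM over the 6 libraries. All points share libraries and the siRNA difference, so r is a description. SNAI1 was most like TCF3 (r = 0.999) and then TAGLN (0.999). SNAI2 was most like FBXO45 (0.995), BTRC (0.969) and CTBP2 (0.967). CDH1 was most like PPIL2 (0.992), TGFB1 (0.987) and KRT18 (0.971). CDH3 was most like PRKD1 (0.976), AJUBA (0.970) and TJP3 (0.964). Among members that did not pass, the first match was TWIST2 for ZEB1 (0.904), PKP4 for ZEB2 (0.942), S100A4 for VIM (0.857) and LOXL2 for FN1 (0.956).

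Other genes of the programme were read from 12 lists, beside the background of 20.7% of genes higher and 21.1% lower and a median of -0.02. Because the lists were chosen with earlier results of these data known, their counts and medians are descriptions and not tests against that background. Of 7 tested EMT-promoting factors, TCF3, an E protein gene, rose from 93.3 ± 0.253 to 156 ± 9.0 CPM (0.74 ± 0.07, edgeR adjusted p = 0.000293), TWIST2 fell and 5 did not pass (median -0.26). Of 9 tested regulators of the epithelial state, GRHL1, a grainyhead factor gene, rose (0.77 ± 0.22, adjusted p = 0.0264) and 8 did not pass (median -0.16). The GRHL1 call was lost without siCtrl replicate 1 (adjusted p = 0.0836), siCtrl replicate 2 (0.0612) or siRCC2 replicate 3 (0.0604).

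Of 10 tested catenin and cadherin tail partner genes, 3 rose, 0 fell and 7 did not pass (median 0.04). CTNNB1, the gene of beta-catenin, rose from 199 ± 10.1 to 254 ± 5.84 CPM (0.35 ± 0.06, edgeR adjusted p = 0.00491). CTNND1, the gene of p120 catenin, which steadies cadherins at the membrane, rose (0.64 ± 0.14), as did its relative ARVCF (0.55 ± 0.11). Of 9 genes of cadherin shedding and turnover, 3 rose, 1 fell and 5 did not pass (median 0.16). Among those that rose were the metalloprotease gene ADAM15 (0.72 ± 0.08) and CBLL1 (0.95 ± 0.19), which encodes the E-cadherin ubiquitin ligase Hakai. ARF6, a small GTPase gene of membrane traffic, fell from 369.6 ± 11.2 to 228 ± 10.9 CPM (-0.70 ± 0.06, adjusted p = 0.000288).

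Of 15 corepressor genes of SNAI and ZEB proteins, 5 rose, 4 fell and 6 did not pass (median 0.13). SMARCA4, the gene of the chromatin remodeller BRG1, rose from 38.5 ± 2.65 to 88.2 ± 1.39 CPM (1.20 ± 0.08, edgeR adjusted p = 9.12e-05), and the deacetylase gene HDAC1 rose (0.53 ± 0.09). AJUBA, a LIM protein gene, fell from 252 ± 5.31 to 122 ± 2.91 CPM (-1.05 ± 0.06, adjusted p = 5.73e-05), and the corepressor scaffold gene SIN3A fell (-0.48 ± 0.08). Of 14 genes that act on the turnover of Snail protein, 3 rose, 4 fell and 7 did not pass (median 0.09). The ubiquitin ligase genes FBXO45 (0.77 ± 0.09) and BTRC (0.61 ± 0.09) rose, and the kinase genes PRKD1 (-1.36 ± 0.12) and CSNK1E (-0.55 ± 0.11) fell. Protein levels were not measured.

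Of 20 tested epithelial genes known as targets of SNAI or ZEB repression, 10 fell, 2 rose and 8 did not pass, with a median of -0.46. The tight junction genes CLDN7 (-1.36 ± 0.19, edgeR adjusted p = 0.00152) and TJP3 (-0.92 ± 0.16) fell. The keratin gene KRT18 rose from 318 ± 7.46 to 452 ± 40.7 CPM (0.51 ± 0.08, adjusted p = 0.00221). The 6 epithelial line markers, CDH1 among them, summed to 4764 to 4997 CPM in siCtrl and 3062 to 3667 CPM in siRCC2. Most of that sum in siCtrl is KRT7, which fell from 3588 ± 116 to 1636 ± 203 CPM, while KRT8 rose (0.66 ± 0.06).

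The mesenchymal list had 14 tested genes, of which 6 did not pass, 3 rose and 5 fell (median -0.01). TAGLN, an actin-binding protein gene, rose (0.65 ± 0.10, edgeR adjusted p = 0.00212). The smooth muscle actin gene ACTA2 fell from 1.75 ± 0.132 to 0.352 ± 0.20 CPM (-2.26 ± 0.39). This fold rests on few reads, 34, 31 and 37 counts in siCtrl and 2, 9 and 9 in siRCC2 replicates 1 to 3. The hyaluronan receptor gene CD44 (-0.43 ± 0.09) and the matrix gene TNC (-0.27 ± 0.06) fell. The TNC call was lost without siCtrl replicate 2 (adjusted p = 0.0587) or siRCC2 replicate 2 (0.111). The 7 stromal markers, of which COL1A1, COL3A1, ACTA2 and PDGFRB are also in the mesenchymal list, summed to 14.0 to 16.4 CPM in siCtrl and 9.31 to 12.6 CPM in siRCC2, with LUM at 0 and DCN at 6 counts or fewer. The calls of COL1A1 (-0.44 ± 0.15) and COL3A1 (1.34 ± 0.39) were each lost in 7 alternatives. COL1A1 was tested in 14 alternatives and COL3A1 in 13. What the stromal markers contribute to the mesenchymal list was not tested.

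Of 7 tested genes of filaments related or bound to vimentin, 1 rose, 3 fell and 3 did not pass (median -0.08). PLEC, the gene of the linker plectin, rose from 1556 ± 46.4 to 2131 ± 155 CPM (0.45 ± 0.07, edgeR adjusted p = 0.00234). The intermediate filament genes PRPH (-1.82 ± 0.23) and NES (-1.07 ± 0.19) and the actin crosslinker gene FLNA (-0.24 ± 0.07, adjusted p = 0.0298) fell. The FLNA call was lost in 8 of 14 alternatives, with an adjusted p of up to 0.203.

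Of 9 tested fibronectin receptor genes and partners, 5 rose, 0 fell and 4 did not pass, with a median of 0.58, while FN1 itself did not pass. SDC4, a heparan sulfate co-receptor gene, rose from 192 ± 1.76 to 449 ± 42.6 CPM (1.22 ± 0.08, edgeR adjusted p = 9.00e-05). TGM2, the gene of a transglutaminase that binds fibronectin, rose from 1438 ± 53.8 to 2817 ± 211 CPM (0.97 ± 0.07). The integrin genes ITGB3 (0.67 ± 0.13) and ITGB1 (0.58 ± 0.14) rose, ITGB1 with an adjusted p of 0.0504 without siCtrl replicate 2. The fifth, SDC2 (1.04 ± 0.34, adjusted p = 0.0434), was named after its values were seen.

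Of 11 genes of the TGF-beta and Notch pathways, which can induce SNAI1 and SNAI2, 2 rose, 2 fell and 7 did not pass (median 0.05). TGFB1 (0.50 ± 0.09, edgeR adjusted p = 0.00473) and NOTCH1 (0.50 ± 0.08) rose, and the signal transducer genes SMAD3 (-0.37 ± 0.06) and SMAD4 (-0.42 ± 0.10) fell. The SMAD4 call was lost without siCtrl replicate 1 (adjusted p = 0.0618). MIR200CHG, the host transcript of miR-200c and miR-141, had 2, 2 and 1 counts in siCtrl and 3, 8 and 1 in siRCC2, and was not tested.

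**Figure D4:**
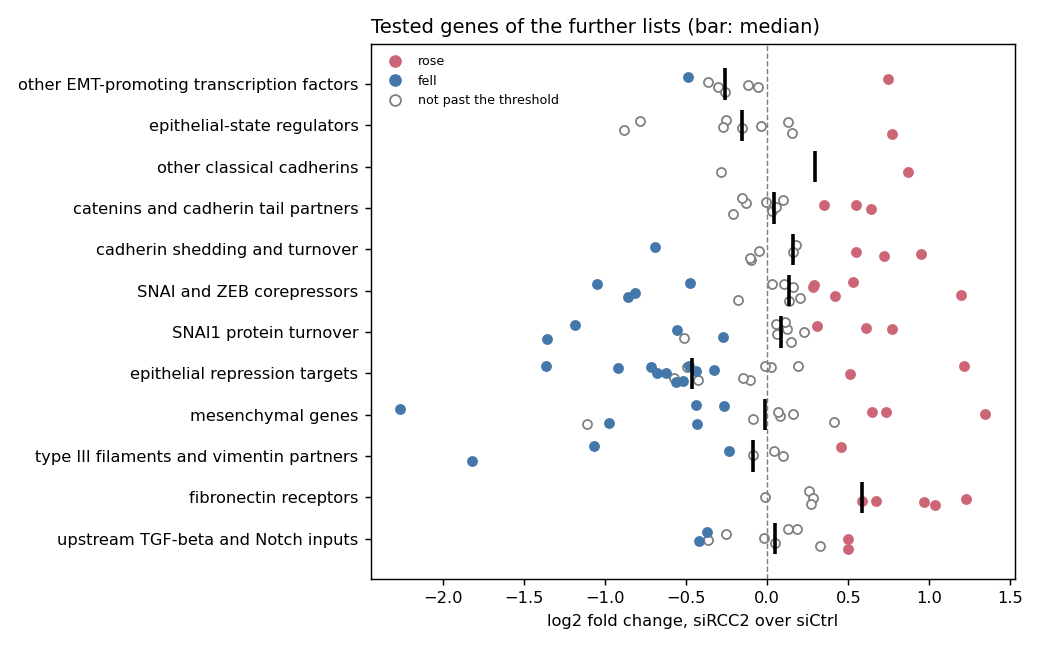
Log2 fold change of siRCC2 over siCtrl for the tested genes of the 12 further lists, 1 circle per gene (red rose, blue fell, open not past the threshold), with a black bar for each list's median. The medians run from -0.46 for epithelial repression targets to 0.58 for fibronectin receptors.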

How the data were processed

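The authors deposited 1 table of whole-number counts per library for 6 DU145 libraries, grouped here by their titles. The submitters' processing notes list Bowtie2, RSEM, DESeq2 and GRCh38, without versions or roles. The sources used here do not give whether RSEM estimates were rounded. Lengths, strands and shared sequence came from GENCODE 29, which holds 50111 of the 50868 identifiers (94.9% at identical coordinates). Coordinates are the deposited ones.

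The test was edgeR 4.0.16 in R 4.3.3 (filterByExpr, TMM, glmQLFit, glmQLFTest) with Benjamini-Hochberg adjustment and a threshold of 0.05. An SE is the size of the log2 fold change over the root of F, and the 95% interval uses the test's degrees of freedom. Floors of 3 counts cover counting error only. Libraries within a group differed by more than counting noise, so none was merged as a duplicate; this does not show that they are independent cultures. Ratios used CPM on library totals plus 0.5, with exact permutation tests (scipy 1.17.1). The 14 alternatives were 3 other scalings, DESeq2 1.42.0, limma-voom (limma 3.58.1), 2 other filters, a replicate block, and each library left out. A threshold of 0.01 was also applied to the main fit and is not counted among the 14.

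Members and lists were chosen with earlier results of these data known. Named are all members, RCC2, and from each list up to 4 genes past the threshold with the smallest p. Other list genes and neighbours named were chosen after their values were seen. For likeness the 3 genes with the highest r were taken, or the first. Some genes that these rules name are not reported here.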

Additional observations from a re-analysis of the deposited data

How the results depend on the processing

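Leaving out 1 library left from 3 to 5 members past the threshold, from 2 to 3 of them higher and from 1 to 2 lower. The second lower member was VIM without siRCC2 replicate 1 (-0.16) and ZEB1 without siRCC2 replicate 3 (-1.03). SNAI1, SNAI2 and CDH3 also passed at an adjusted p of 0.01, and CDH1 did not. The sign changed for ZEB2 and VIM, which did not pass, and for none of the other 6 tested members under the 14 alternatives. ZEB2 was -0.07 without siCtrl replicate 2 and -0.31 without siRCC2 replicate 3, within a range up to 0.29. VIM was 0.0152 without siRCC2 replicate 2 and 0.00152 without siRCC2 replicate 3. The difference in the log2 ratio of CDH1 to CDH2 was -0.13 with 0.1 CPM added.

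Over all genes, 4117 passed at 0.01 (2069 higher and 2048 lower), against 6911 (3423 and 3488) at 0.05, and 5112 to 7565 passed at 0.05 without 1 library. Scaling by total count gave 2978 higher and 3982 lower. Deviations of same-numbered libraries correlated at 0.06, -0.04 and 0.10, so the numbers were not taken to pair the samples. With the replicate block 6295 genes passed (3075 higher and 3220 lower), with 4 members among them, 3 higher and 1 lower (CDH1 adjusted p = 0.0472), and the differences in the ratios were 0.12 (CDH1 to CDH2) and 0.34 (CDH1 to VIM). Depth limits ZEB2, with 11 to 30 counts per library, and CDH2 and TWIST1, which could not be tested.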
